A study of Mus musculus with 24 samples.

Results

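At 12 h after pilocarpine-induced status epilepticus (SE), mRNA of the hippocampal CA1 subfield was compared between 3 libraries of SE-experienced mice and 3 libraries of non-SE controls (Ctr) taken at the same time point. These are the 6 libraries that the labels place at 12 h, out of 24 in the series, and all genes that passed a filter on low counts entered the comparison. In the series as a whole, SE animals were taken 6 to 72 h after SE, at 5 time points, and controls at 12, 36 and 72 h. All mice were adult C57Bl/6N animals of at least 60 days and 20 g that first received 1 mg/kg scopolamine methyl nitrate, a muscarinic blocker that stays largely outside the brain. SE animals received 335 mg/kg pilocarpine, a muscarinic agonist, 20 min later and 4 mg/kg diazepam 40 min after the onset of SE, and pilocarpine-injected animals that did not develop SE were not used. Control animals were handled in the same way with saline in place of pilocarpine, so an effect of pilocarpine itself and an effect of the seizures cannot be told apart. CA1 was dissected with needles from slices of 400 µm under a microscope, and polyadenylated RNA was sequenced as paired-end reads. The labels give neither sex nor whether each library came from a separate animal, so p-values measure the spread between these libraries.

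SE is a seizure that does not stop by itself, and in rodents it is followed after a latent phase by chronic epilepsy. Strong neuronal firing raises calcium in neurons and switches on immediate early genes, first transcription factors and then secreted and synaptic effectors, while kinases and phosphatases of the MAPK pathway set the strength and duration of this response. Astrocytes and microglia react to the same insult with cytokines, chemokines, intermediate filaments and matrix proteins, and CA1 pyramidal neurons, which are sensitive to prolonged seizures, adjust receptors and ion channels that set their excitability.

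The SE libraries held 12623517 to 30133731 counts and the controls 10651808 to 27648010, and values are given as CPM, counts divided by the TMM-normalized library size and multiplied by 1e6. Pearson r of the log2 CPM was 0.962 to 0.984 for the 6 pairs of libraries within a group and 0.918 to 0.938 for the 9 pairs between groups, and the first principal component, with 61.0% of the variance, separated the groups. Sums of marker lists differed between libraries, and the source of these RNAs was not tested. SE 12 h replicate 1 held 713 CPM of a list of 9 sensory ganglion genes, with Scn10a and Prph at 142 and 127 CPM, against 4.91 to 15.2 CPM for the list in the other 5 libraries, and it held 34.1 CPM of Xist against at most 0.558 in the others, while the Y-linked Ddx3y was at 68.5 to 85.5 CPM in all 6. In Ctr 12 h replicate 3, CA3 pyramidal genes summed to 555 CPM, with Npy2r and Cpne4 at 121 and 201 CPM, against 97.9 to 132 CPM in the other 5, and CA1 pyramidal genes summed to 1211 CPM against 2044 and 1898 CPM in the other controls. The CA1 genes summed to 1055 to 1311 CPM in the SE libraries. All 9 CA1 genes were present in every library. Of the sensory ganglion list 4 of 9 genes were called higher after SE, and 0 without SE replicate 1 or without Ctr replicate 3. Of the CA3 list 2 of 5 genes tested were called lower, and 0 without Ctr replicate 3. Of the dentate granule list 1 of 7 genes and of the choroid plexus list 2 of 3 genes tested were called. None of the calls in these 4 lists held in all 6 fits that leave out 1 library, and all are part of the counts over all genes below. SE replicate 2 held the lowest sum of oligodendrocyte genes, 1667 CPM against 2941 to 4455 CPM in the other 5. Counts of genes in a list are therefore also given without SE replicate 1 or without Ctr replicate 3 where they moved by more than 1.5 times, and for some lists where they moved less.

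**Figure D1:**
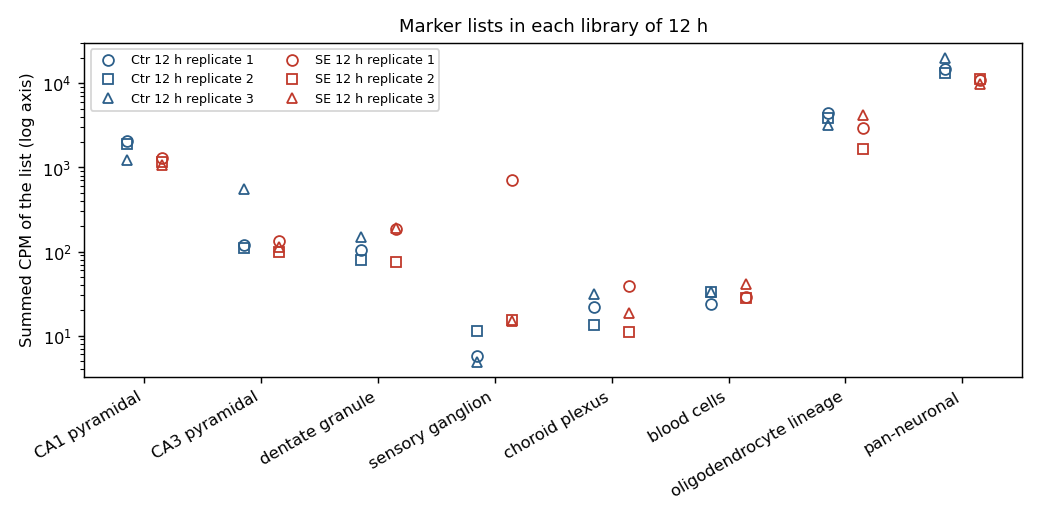
Summed CPM (log axis) of 8 marker lists in each of the 6 libraries of 12 h, with blue symbols for Ctr and red symbols for SE and 1 symbol shape per replicate. The sensory ganglion list stands out at 713 CPM in SE replicate 1 and the CA3 pyramidal list at 555 CPM in Ctr replicate 3.

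A differentially expressed gene (DEG) was one whose adjusted p did not exceed 0.05 and whose Log2FC was 0.66 or more in absolute size, where Log2FC is the log2 of SE over Ctr in edgeR's fit, given with its standard error. Of 18153 genes tested, 4580 (25.2%) were DEGs, 2518 higher after SE (13.9%) and 2062 lower (11.4%), and these shares are the background for every list below. The median Log2FC of all genes tested was 0.01. The rises were larger than the falls. The median absolute Log2FC was 1.40 among genes that rose and 1.06 among those that fell, and 825 of the risen genes but 210 of the fallen ones reached an absolute Log2FC of 2. Together the risen genes made up 14.9, 15.4 and 18.3% of all CPM in the SE libraries and 6.07 to 6.64% in the controls. The fallen genes made up 8.67 to 10.3% after SE and 17.2 to 19.5% in controls. The 3 SE and the 3 Ctr libraries did not overlap in 8653 genes (47.7%). Among DEGs they did not overlap in 94.4% of the risen and 93.8% of the fallen genes, so groups that are apart are the rule for any called gene. Of the DEGs, 1606 risen and 1207 fallen genes were called in each of the 6 fits that leave out 1 library of 12 h, 15.5% of all genes tested. Without SE replicate 1 and Ctr replicate 3 together, an alternative chosen after the data were seen, 2054 of the risen and 1566 of the fallen genes kept their call. Protein-coding genes were called in 26.3% of 15224 cases and long noncoding RNA genes in 22.4% of 1811, of which 148 rose and 257 fell. Reads were counted without regard to strand, and the spans of 66.96% of the risen and 72.31% of the fallen genes overlap a gene on the opposite strand. These spans include introns, and the share over all genes tested was not computed. Only where exons overlap can strand not be used to tell the reads of such genes apart.

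**Figure D2:**
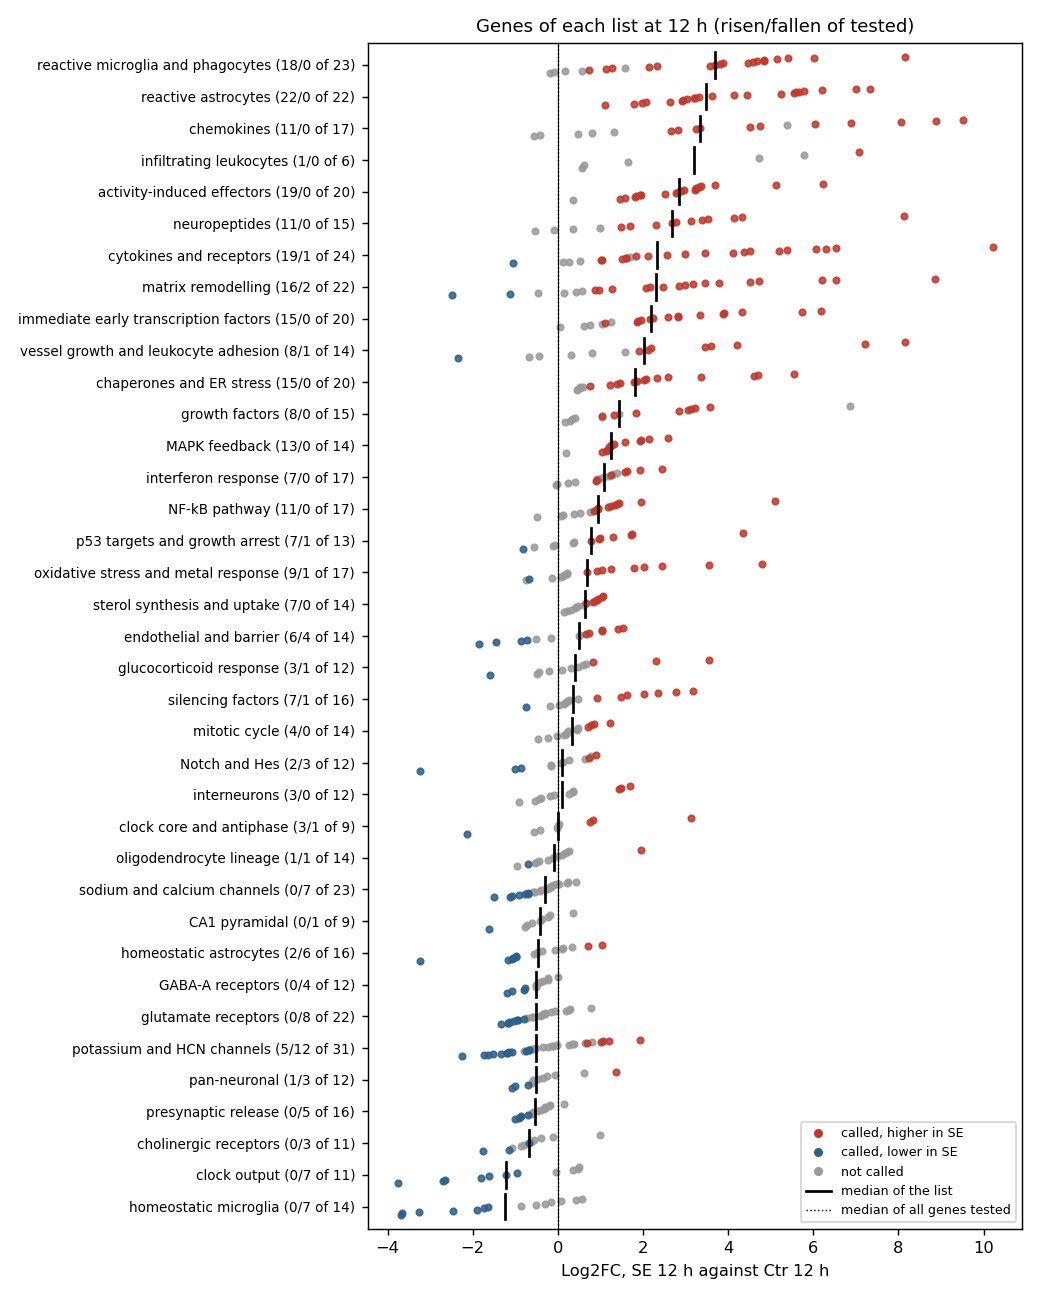
Log2FC of SE against Ctr at 12 h for each gene (points) of 37 lists, sorted by the median of the list (black bar), with red points for DEGs that rose, blue points for DEGs that fell and grey points for genes not called. Reactive microglia, reactive astrocytes and chemokines have the highest medians, at 3.68, 3.47 and 3.33, and homeostatic microglia and clock output genes the lowest, at -1.25 and -1.21, while the median of all genes tested is 0.01. With genes at 0 in all controls set at their lower bound, the chemokine median is 2.81, below the 2.85 of the activity-induced effectors.

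Among DEGs whose log2 CPM averaged 1 or more, with groups that did not overlap and more than 3 counts in at least 2 controls, 7 of the 8 largest rises are described here, among them those of secreted and membrane proteins of glia and of active neurons. Lcn2 (ENSMUSG00000026822.15, chromosome 2 from 32274645 to 32278264 of GRCm39), the iron-carrier lipocalin of reactive astrocytes, was at 44.3, 38.2 and 80.3 CPM in the 3 SE libraries and at 0.379, 0.691 and 0.0773 CPM in controls. Its Log2FC was 7.32 ± 0.65 (adjusted p = 1.21e-07). All SE libraries lay far above all controls. Inhba (ENSMUSG00000041324.15, chromosome 13 from 16186373 to 16206206), which encodes the activin A subunit, was at 491, 707 and 631 CPM after SE and 10.8, 6.22 and 7.69 CPM in Ctr, a Log2FC of 6.23 ± 0.73. Lif (ENSMUSG00000034394.15, chromosome 11 from 4207557 to 4222514), the gp130 cytokine that acts on astrocytes, was at 173, 64.01 and 92.97 CPM after SE and 0.757, 1.73 and 1.43 CPM in Ctr, a Log2FC of 6.30 ± 0.49. SE replicate 1 was the highest for Lif, and the groups were far apart for both genes. Fndc9 (ENSMUSG00000048721.3, chromosome 11 from 46126284 to 46130701), which encodes a fibronectin type III domain protein, was at 121, 166 and 276 CPM after SE and 1.61, 2.63 and 1.24 CPM in Ctr (Log2FC 6.69 ± 0.63). Tgm1, the transglutaminase that cross-links proteins, rose by a Log2FC of 6.99 ± 0.57. Timp1, the metalloproteinase inhibitor, rose by 6.21 ± 0.45, and the chemokine gene Ccl3 by 6.05 ± 0.69. All 7 were called in each of the 6 fits with 1 library left out.

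Among the 8 largest falls, chosen in the same way, there were microglial receptors and a clock-controlled transcription factor. Dbp (ENSMUSG00000059824.13, chromosome 7 from 45354512 to 45359627), a PAR bZIP factor driven by the circadian clock, was at 4.17, 3.75 and 1.91 CPM after SE and 44.8, 59.2 and 34.3 CPM in Ctr, a Log2FC of -3.76 ± 0.34 (adjusted p = 1.29e-07). P2ry12 (ENSMUSG00000036353.14, chromosome 3 from 59123682 to 59170429), the ADP receptor of surveying microglia, was at 3.23, 3.88 and 3.03 CPM after SE and 44.6, 41.5 and 46.2 CPM in Ctr (Log2FC -3.69 ± 0.25). Selplg (ENSMUSG00000048163.14, chromosome 5 from 113956597 to 113970705), the P-selectin ligand, was at 2.39, 2.78 and 2.63 CPM after SE and 32.7, 32.8 and 33.1 CPM in Ctr (Log2FC -3.65 ± 0.30). In these bulk libraries, fewer cells of a type and less RNA per cell cannot be told apart. Kirrel2, which encodes a nephrin-like adhesion protein, fell from 29.1, 27.5 and 25.1 CPM in Ctr to 2.78, 2.98 and 2.95 CPM. Gli1, a transcription factor of the hedgehog pathway, fell from 10.2, 14.8 and 6.88 CPM to 1.29, 1.72 and 0.717 CPM. The noncoding transcript Gm48408 (Log2FC -3.69 ± 0.45) and Lefty1 (-3.12 ± 0.69), which encodes a secreted inhibitor of Nodal, also fell. Ccbe1 had a Log2FC of -3.75 ± 1.24, but its controls were at 2.93, 3.18 and 61.6 CPM and its SE libraries at 1.74, 1.49 and 1.99 CPM, and without Ctr replicate 3 the Log2FC was -0.82 and not called. The other 7 falls were called in each of the 6 fits with 1 library left out.

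**Figure D3:**
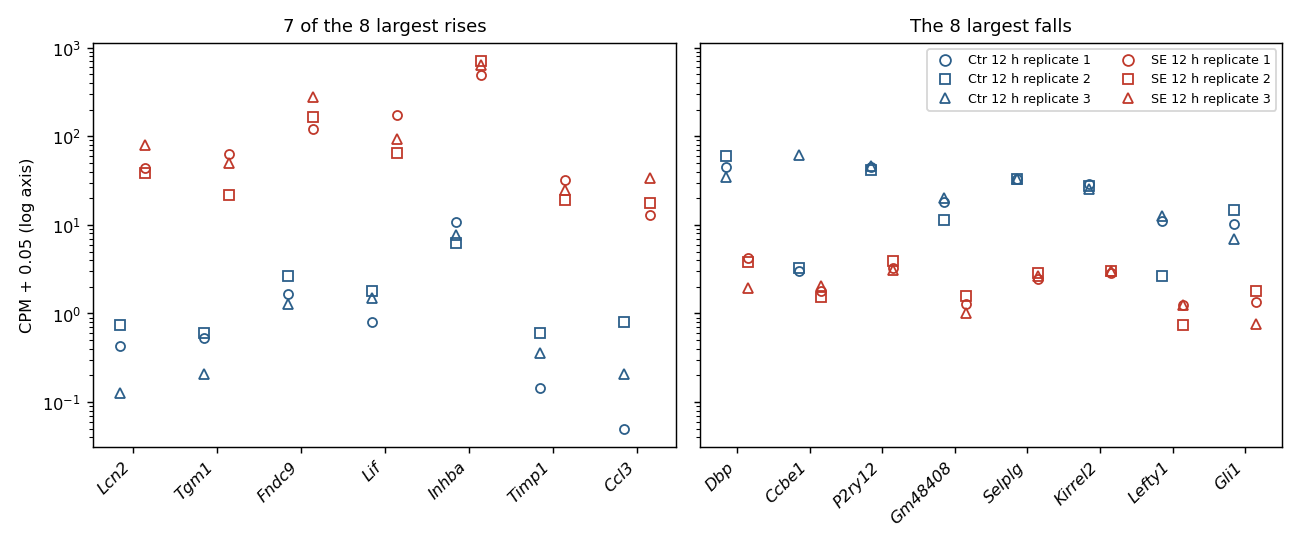
CPM (log axis, with 0.05 added) in each library of 12 h for 7 of the 8 largest rises (left) and the 8 largest falls (right), with blue symbols for Ctr, red symbols for SE and 1 symbol shape per replicate. The groups are apart in all 15 genes because the rule that chose them required it, and Ccbe1 is the gene whose distance rests on Ctr replicate 3 at 61.6 CPM.

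Immediate early transcription factors were still raised at 12 h. Of 20 genes, 15 rose and 0 fell, with a median Log2FC of 2.20. Fosb, an AP-1 subunit whose stable splice form accumulates with repeated activity, was at 125, 308 and 558 CPM after SE and 17.98, 16.2 and 13.3 CPM in Ctr, a Log2FC of 4.33 ± 0.80 (adjusted p = 0.000314). Atf3, a stress-induced bZIP factor, was at 17.1, 24.99 and 62.2 CPM after SE and 0.379, 0.899 and 0.619 CPM in Ctr (Log2FC 5.74 ± 0.81). Egr2, a zinc finger factor, was at 39.4, 32.9 and 53.9 CPM after SE and 3.60, 2.83 and 2.20 CPM in Ctr (Log2FC 3.90 ± 0.83). SE replicate 3 was the highest of the 6 libraries in each of these 3 genes, and no SE library overlapped a control. The AP-1 subunit Fosl1 rose from 0, 0.0691 and 0.116 CPM in Ctr to 4.17, 4.54 and 11.2 CPM, and the small Maf factor Maff rose by a Log2FC of 3.87 ± 0.40. Members of the same families differed in size. Fos, Egr1, Npas4 and Ier2 rose by Log2FC of 3.33, 2.60, 2.81 and 2.82, and the 3 Jun genes by 1.95 (Junb), 1.87 (Jun) and 1.86 (Jund). The orphan nuclear receptors Nr4a1, Nr4a2 and Nr4a3 were not called, with Log2FC of 1.24 ± 0.49, 0.05 ± 0.51 and 0.61 ± 0.62, and neither was Egr3 (0.76 ± 0.55). Nr4a2 was at 62.9, 69.01 and 255 CPM after SE and 121, 186 and 59.8 CPM in Ctr, so its groups overlapped. Without SE replicate 1, 15 of the 20 rose, and without Ctr replicate 3, 13 rose.

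Of 20 effector genes that neuronal activity induces, 19 rose and 0 fell, with a median Log2FC of 2.85, and all 19 were called in each fit with 1 library left out. Nptx2, a pentraxin that gathers AMPA receptors at synapses, was at 386, 679 and 695 CPM after SE and 22.5, 10.6 and 18.5 CPM in Ctr (Log2FC 5.13 ± 0.68). Scg2, a granin of secretory granules, was at 1671, 1171 and 2280.0 CPM after SE and 202, 125 and 175 CPM in Ctr (Log2FC 3.36 ± 0.38). Ptgs2, the inducible cyclooxygenase, was at 227, 311 and 184 CPM after SE and 6.91, 4.35 and 42.5 CPM in Ctr (Log2FC 3.69 ± 0.67). The groups were apart in all 3 genes, with Ctr replicate 3 the highest control for Ptgs2. Arc, which drives AMPA receptor endocytosis, rose by 3.24 ± 0.55, the neurotrophin Bdnf by 2.89 ± 0.51, the granin-related Vgf by 2.96 ± 0.34 and the growth arrest gene Gadd45g by 3.31 ± 0.51. Plk2 was the member not called, at 255, 380.1 and 348 CPM after SE and 292, 202 and 267 CPM in Ctr.

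Neuropeptide genes rose in 11 of 15 cases, with a median Log2FC of 2.67 and none lower. Gal, the galanin precursor, was at 11.1, 19.9 and 5.58 CPM after SE and at 0, 0.0691 and 0.0387 CPM in Ctr, where the 3 controls held 2 counts in total, a ratio of 362 with a 95% interval of 99.9 to 2994 for counting error only. Nts, the neurotensin precursor, was at 186, 144 and 319 CPM after SE and 16.8, 18.1 and 3.29 CPM in Ctr (Log2FC 4.14 ± 0.58). Pdyn, the dynorphin precursor, was at 11.8, 78.7 and 66.4 CPM after SE and 2.65, 2.35 and 5.57 CPM in Ctr (Log2FC 3.54 ± 0.65). In each of these genes the lowest SE library exceeded the highest control, although SE libraries differed among themselves by up to several fold, and Penk, the enkephalin precursor, was at 30.8, 297 and 45.3 CPM, highest in SE replicate 2. Trh (Log2FC 4.33 ± 0.84), Crh (3.39 ± 0.42) and Pnoc (3.13 ± 0.29), which encode thyrotropin-releasing hormone, corticotropin-releasing hormone and prepronociceptin, also rose. Cck, Vip, Tac2 and Cort were not called, with Log2FC of -0.54, 0.37, -0.09 and 0.98. Without SE replicate 1, 12 genes rose, without Ctr replicate 3, 10, and without both, 9.

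Feedback inhibitors of the MAPK pathway rose in 13 of 14 cases, with a median Log2FC of 1.25, or in 11 without Ctr replicate 3. Spry4, a Sprouty inhibitor of receptor tyrosine kinase signalling, was at 62.8, 84.99 and 68.6 CPM after SE and 16.4, 17.5 and 15 CPM in Ctr (Log2FC 2.15 ± 0.21). Spred3, a related inhibitor, was at 198, 190.3 and 205 CPM after SE and 87.1, 75.5 and 74.7 CPM in Ctr (Log2FC 1.32 ± 0.19). Dusp4, a nuclear MAPK phosphatase, was at 35.5, 146 and 61.2 CPM after SE and 10.9, 11.3 and 16.3 CPM in Ctr (Log2FC 2.59 ± 0.47). The SE libraries of Spry4 and Spred3 lay close together and apart from the controls, whereas Dusp4 was highest in SE replicate 2. Spry2 rose by 1.94, and Dusp2 by 1.95, or 1.38 and not called without SE replicate 2. Dusp8 was not called (0.19 ± 0.21).

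Chaperone and endoplasmic reticulum stress genes rose in 15 of 20 cases, with a median Log2FC of 1.81 and none lower. Hspb1, a small heat shock protein also made by reactive astrocytes, was at 200.5, 83.3 and 257 CPM after SE and 3.69, 4.91 and 3.09 CPM in Ctr (Log2FC 5.55 ± 0.43). The cytosolic chaperone genes Hspa1a and Hspa1b, near-identical copies whose reads may have been split or discarded in counting, were at 8.002, 19.8 and 178 CPM and 17.7, 54.96 and 414 CPM after SE, with controls at 1.32, 2.56 and 4.10 CPM and 4.07, 2.004 and 11.7 CPM. SE replicate 3 was far above the other SE libraries in both copies, and all 3 SE libraries were above all controls. Bag3, an Hsp70 co-chaperone, rose by 3.37 ± 0.32 and Sdf2l1, of the endoplasmic reticulum, by 2.58 ± 0.35. Atf4, the translation-controlled factor of the integrated stress response, was at 211, 261 and 349 CPM after SE and 76.9, 83.1 and 75.05 CPM in Ctr (Log2FC 1.80 ± 0.17), whereas its partner gene Ddit3 was not called (0.47 ± 0.24). All 15 rises were called in each fit with 1 library left out.

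In the oxidative stress and metal response list, 9 of 17 genes rose and 1 fell, with a median Log2FC of 0.68. Hmox1, heme oxygenase 1, was at 80.5, 80.3 and 215 CPM after SE and 4.45, 4.56 and 4.45 CPM in Ctr (Log2FC 4.80 ± 0.35). Mt2, a metallothionein that binds zinc, was at 16.5, 62.8 and 131 CPM after SE and 5.87, 7.46 and 4.72 CPM in Ctr (Log2FC 3.56 ± 0.67), and Mt1 was at 828, 787 and 1448 CPM after SE and 254, 302 and 197 CPM in Ctr. SE replicate 3 was the highest library for all 3 genes, and the groups did not overlap. The neuronal metallothionein Mt3 was not called (-0.13 ± 0.15), nor were the Nfe2l2 targets Nqo1 (-0.75 ± 0.45), Gclm (0.22 ± 0.09) and Gclc (0.07 ± 0.11), whereas Srxn1, another target, and Nfe2l2 itself rose by 2.44 and 1.25. Ppargc1a, a coactivator of mitochondrial genes, fell by 0.69 on the log2 scale, a call lost in 3 of the 6 fits with 1 library left out.

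Among p53 targets and growth arrest genes, 7 of 13 rose and 1, Sesn1 (-0.83 ± 0.24), fell. Cdkn1a, which encodes the cell cycle inhibitor p21, was at 137, 240.5 and 272 CPM after SE and 12.7, 13.6 and 5.95 CPM in Ctr (Log2FC 4.36 ± 0.47). No other member came near this size, the next being Gadd45a (1.75 ± 0.32) and Phlda3 (1.73 ± 0.32). The BH3-only gene Bbc3 and Bax were not called, with Log2FC of -0.11 and 0.37.

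Chemokine genes started from very low levels in Ctr. Of 19 listed, 17 passed the filter on low counts, 11 of these rose and 0 fell, and the median Log2FC was 3.33, or 2.81 with the genes at 0 in all controls set at their lower bound. Ccl3 was at 12.9, 17.6 and 33.8 CPM after SE and 0, 0.760 and 0.155 CPM in Ctr, and Ccl4, whose sequence is close to that of Ccl3, was at 13.3, 17.7 and 32.8 CPM after SE while the controls held 1 count in total. Both attract monocytes. Ccl9 was at 28.3, 39.2 and 58.6 CPM after SE and 1.23, 1.45 and 1.66 CPM in Ctr (Log2FC 4.75 ± 0.36). SE replicate 3 was the highest and SE replicate 1 the lowest library after SE in these 3 genes, all apart from the controls. Ccl2, the ligand of Ccr2, was at 7.31, 7.16 and 15.7 CPM after SE and 0.0946, 0.207 and 0 CPM in Ctr. Cxcl10, an interferon-inducible chemokine, was at 6.66, 1.82 and 3.82 CPM after SE, with no count in any control, at least 20.3-fold higher when the controls are set at 3 counts per library. Ccl7 was at least 11.4-fold higher by the same bound. Ccl5 passed the threshold with 14 counts in the SE libraries and none in Ctr, too few for a fold. Cx3cl1, the neuronal ligand of microglial Cx3cr1, was at 758, 927 and 744 CPM after SE and 552, 591 and 600.4 CPM in Ctr, a Log2FC of 0.48 ± 0.18 under the threshold.

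Cytokine and receptor genes rose in 19 of 24 cases and 1 fell, with a median Log2FC of 2.34, or 2.08 with the bounds. Without Ctr replicate 3, 17 rose. Members of the gp130 cytokine family rose at several levels. Beside Lif, the ligands Clcf1 (4.38 ± 0.52), Il11 (4.12 ± 0.70) and Osm (4.51 ± 0.78) rose, the receptor Osmr was at 86.2, 60.03 and 93.5 CPM after SE and 9.65, 6.36 and 6.19 CPM in Ctr (Log2FC 3.46 ± 0.27), and the shared receptor Il6st rose by 1.03 ± 0.11, while Lifr was not called (0.12 ± 0.18). Socs3, the feedback inhibitor induced by Stat3, was at 89.2, 67.1 and 127 CPM after SE and 1.04, 5.05 and 0.889 CPM in Ctr (Log2FC 5.38 ± 0.50), and Stat3 itself was at 249, 163 and 250.3 CPM after SE and 54.04, 51.3 and 46.4 CPM in Ctr. These groups did not overlap, with SE replicate 2 the lowest SE library for Osmr, Socs3 and Stat3. Il6 was at 0.248, 0.564 and 1.67 CPM after SE with no count in Ctr, at least 4.09-fold higher, and its call was lost without Ctr replicate 3. Il1rn, the natural antagonist of the interleukin-1 receptor, was at 7.90, 7.33 and 13.3 CPM after SE with no count in Ctr, at least 47.0-fold higher. Il1b, an agonist of the same receptor, was at 0.547, 0.597 and 0.797 CPM after SE and 0.0946, 0.207 and 0.0387 CPM in Ctr, a call lost in 4 of the 6 fits with 1 library left out. In the tumour necrosis factor family, Tnf was at 1.54, 1.62 and 2.47 CPM with 1 count in the controls in total (ratio 89.9, 95% interval 15.8 to 3583 for counting error only), and the receptor Tnfrsf1a was at 67.99, 69.9 and 85.3 CPM after SE and 8.42, 10.6 and 8.89 CPM in Ctr (Log2FC 3.00 ± 0.17, adjusted p = 4.41e-10). Il18 was the gene that fell (-1.06 ± 0.16).

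Of 17 genes of the NF-kB pathway, which carries signals of these receptors to the nucleus, 11 rose and 0 fell, with a median Log2FC of 0.94, and 9 rose without Ctr replicate 3. Bcl3, a nuclear IkB protein, was at 7.06, 7.79 and 11.4 CPM after SE and 0.379, 0.276 and 0.155 CPM in Ctr (Log2FC 5.10 ± 0.60), and Nfkb2, the p100 subunit, was at 10.04, 12.96 and 18.9 CPM after SE and 2.74, 4.56 and 3.13 CPM in Ctr (Log2FC 1.96 ± 0.22). The inhibitor Nfkbia rose by 0.89 ± 0.24. The kinase genes Ikbkb and Chuk and the inhibitor Tnfaip3 were not called, with Log2FC of 0.13, 0.39 and 0.07.

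Promoters were searched on both strands for kappaB, AP-1 (TGANTCA), CRE (TGACGTCA), CArG, E-box (CACGTG) and D-box (TTANGTAA) motifs, from 250 bases before to 50 bases after the start in the RefSeq table of GRCm38.p6. A kappaB motif was found in 5.14% of 27025 genes with a promoter, in 7 of the 13 NF-kB pathway genes with one (53.8%), in 4 of 13 chemokine genes (30.8%) and in 6 of 16 immediate early transcription factor genes (37.5%). The AP-1 motif was found in 8.97% of all genes, in 3 of 13 chemokine genes, in 4 of 13 NF-kB pathway genes and in 0 of 16 immediate early genes. Of the 16 immediate early genes, 2 held a CRE (12.5%, against 2.03% of all genes) and 1 a CArG motif (6.25% against 1.81%). The E-box was found in 3 of them (18.8% against 8.09%) and the D-box in 0 (against 2.72%). A match of letters is a description and not a bound site. The 250 bases before the start of Cxcl1, Cxcl10 and Nfkb2, all called, are shown because they hold the kappaB motif, in capitals, at 1 place in Cxcl1 and at 2 separate places in Cxcl10 and Nfkb2. Matches 1 base apart are written as 1 run, and Cxcl10 also holds an AP-1 motif in capitals. Positions are on GRCm39, by exact match of the RefSeq sequence, and each sequence is written 5′ to 3′ on the strand of its gene.
The window of Cxcl1 is chr5:91038854-91039103 on the plus strand, that of Cxcl10 chr5:92496749-92496998 on the minus strand and that of Nfkb2, for 1 of its 3 listed starts, chr19:46292926-46293175 on the plus strand.
Cxcl1: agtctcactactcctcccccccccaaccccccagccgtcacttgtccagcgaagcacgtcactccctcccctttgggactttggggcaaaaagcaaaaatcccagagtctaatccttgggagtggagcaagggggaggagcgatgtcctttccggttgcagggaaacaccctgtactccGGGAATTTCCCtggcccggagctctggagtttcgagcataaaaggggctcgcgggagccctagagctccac
Cxcl10: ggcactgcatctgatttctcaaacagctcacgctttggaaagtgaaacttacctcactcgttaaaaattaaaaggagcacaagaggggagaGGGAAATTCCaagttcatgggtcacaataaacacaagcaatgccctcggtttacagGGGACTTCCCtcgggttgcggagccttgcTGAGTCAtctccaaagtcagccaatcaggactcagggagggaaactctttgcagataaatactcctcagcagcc
Nfkb2: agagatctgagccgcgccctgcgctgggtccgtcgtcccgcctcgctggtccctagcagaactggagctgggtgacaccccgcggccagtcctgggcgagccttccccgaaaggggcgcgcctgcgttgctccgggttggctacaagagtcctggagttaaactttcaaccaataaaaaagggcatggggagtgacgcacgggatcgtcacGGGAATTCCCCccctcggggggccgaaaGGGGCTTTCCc

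Microglial genes moved in both directions. Of 14 genes of homeostatic microglia tested, 7 fell and 0 rose, with a median Log2FC of -1.25, and all 7 were called in each fit with 1 library left out. Beside P2ry12 and Selplg, P2ry13 fell from 11.4, 16.4 and 13.2 CPM in Ctr to 2.58, 2.19 and 2.63 CPM. Gpr34, a lysophosphatidylserine receptor, fell from 13.7, 16.3 and 14.7 CPM to 5.07, 4.54 and 3.66 CPM. The fructose transporter Slc2a5 fell by 3.26 on the log2 scale and Tmem119 by 1.90. Other markers of the same cells were not called. Cx3cr1, the fractalkine receptor, was at 52.1, 49.5 and 51.2 CPM after SE and 58.3, 53.6 and 58.1 CPM in Ctr, and Trem2, a lipid-sensing receptor, was at 10.4, 10.8 and 16.6 CPM and 10.2, 15.1 and 10.4 CPM. Csf1r, the receptor that microglia need to survive, was at 73.1, 74.5 and 95.1 CPM after SE and 123, 121 and 106 CPM in Ctr, a Log2FC of -0.52 ± 0.13 under the threshold.

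Genes of reactive microglia and phagocytes rose in 18 of 23 cases, with none lower and a median Log2FC of 3.68. Msr1, a scavenger receptor, was at 26.2, 19.9 and 28.3 CPM after SE and 0.189, 1.04 and 0.0387 CPM in Ctr (Log2FC 6.02 ± 0.54). Spp1, osteopontin, was at 197, 155 and 426 CPM after SE and 7.004, 15.4 and 5.61 CPM in Ctr (Log2FC 4.84 ± 0.47), and Lgals3, galectin 3, was at 11.5, 17.1 and 17.7 CPM after SE and 0.379, 0.415 and 0.348 CPM in Ctr. No SE library overlapped a control in any of the 3 genes. Cd14, the co-receptor for endotoxin, rose by 4.59 ± 0.50 and the complement receptors C5ar1 and C3ar1 by 4.48 ± 0.42 and 3.57 ± 0.31. Lilrb4b was at 12.1, 11.2 and 17.5 CPM after SE with 2 counts in the controls in total (ratio 325, 95% interval 89.7 to 2690 for counting error only), and Lilrb4a, a near-identical neighbour, at 5.72, 7.96 and 12.3 CPM. The split of reads between both is uncertain. Apoe, Axl, Ctss and Clec7a were not called, with Log2FC of -0.19, -0.10, 0.16 and 1.58. Markers of leukocytes were low in these libraries. Of 15 leukocyte genes, 6 passed the filter, all with a Log2FC above 0. Their median was 3.19, or 1.13 with the genes at 0 in all controls set at their lower bound. The gene called was S100a8, at 2.04, 0.133 and 1.43 CPM after SE with no count in Ctr. This call was lost in 4 of the 6 fits with 1 library left out. S100a9 was not called, with 82 counts in the SE libraries and 1 in Ctr. That is a ratio of 66.4, with a 95% interval of 11.6 to 2655 for counting error only. Ptprc, the pan-leukocyte CD45, was at 4.87, 5.24 and 6.29 CPM after SE and 3.69, 3.46 and 3.98 CPM in Ctr. Haemoglobin genes and Alas2 summed to 27.7 to 41.4 CPM after SE and 23.5 to 33.4 CPM in Ctr, and 0 of 5 were called.

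All 22 reactive astrocyte genes tested rose, with a median Log2FC of 3.47, and each was called in every fit with 1 library left out. Gfap, the intermediate filament of astrocytes, was at 3538, 2228 and 3666 CPM after SE and 254, 253 and 256 CPM in Ctr, a Log2FC of 3.63 ± 0.25 (adjusted p = 7.58e-09). Cd44, the hyaluronan receptor, was at 207, 148 and 214 CPM after SE and 2.37, 6.77 and 2.59 CPM in Ctr (Log2FC 5.61 ± 0.40). Ptx3, a pentraxin, was at 63.4, 23.04 and 46.8 CPM after SE and 0.757, 0.553 and 0.967 CPM in Ctr (Log2FC 5.79 ± 0.55). SE replicate 2 was the lowest SE library in all 3 genes and still lay far above the controls. Serpina3n, a protease inhibitor, Vim and Nes, which encode vimentin and nestin, rose by 3.22, 2.95 and 2.63. C3, a complement component, was at 2.44, 0.796 and 3.98 CPM after SE and 0.0946, 0.207 and 0.464 CPM in Ctr, and H2-D1, of class I antigen presentation, rose least of the list (1.11 ± 0.20).

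Genes of resting astrocyte functions split, with 2 of 16 higher, or 1 without Ctr replicate 3, and 6 lower, and a median Log2FC of -0.48. Glul, glutamine synthetase, was at 616, 717 and 1039 CPM after SE and 1824, 1852 and 1646 CPM in Ctr (Log2FC -1.17 ± 0.17). Gja1, connexin 43, was at 74.3, 122 and 151 CPM after SE and 249, 244 and 221 CPM in Ctr (Log2FC -1.04 ± 0.20), and Slc7a10 and Hes5 fell by 1.08 and 3.25 on the log2 scale. Aqp4, the water channel of astrocyte end-feet, was at 250.2, 181 and 185 CPM after SE and 99.5, 102 and 98.5 CPM in Ctr (Log2FC 1.04 ± 0.23). The groups were apart for Glul, Gja1 and Aqp4. The glutamate transporters Slc1a2 and Slc1a3 and the potassium channel Kcnj10 were not called, with Log2FC of -0.38 ± 0.13, 0.13 ± 0.16 and -0.49 ± 0.21.

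Endothelial and barrier genes also split, with 6 of 14 higher, 4 lower and a median Log2FC of 0.50. The junction genes Pecam1 and Cdh5 rose, Pecam1 from 21.96, 26.7 and 19.2 CPM in Ctr to 54.1, 58.1 and 83.4 CPM and Cdh5 by 1.42 ± 0.20. The transporters Slco1a4 and Abcb1a fell, Slco1a4 from 94.3, 107 and 89.1 CPM to 31.1, 24.1 and 25.4 CPM and Abcb1a by 1.46 on the log2 scale, and the tight junction gene Ocln fell by 0.87, a call lost in 5 of the 6 fits with 1 library left out, while Cldn5 was not called (0.50 ± 0.21). In the list of vessel growth and leukocyte adhesion, 8 of 14 rose and 1 fell, with a median of 2.01. Sele and Selp, the endothelial selectins, were at 1.14, 3.35 and 3.74 CPM and 0.646, 1.43 and 1.99 CPM after SE with no count in Ctr, at least 13.6-fold and 6.69-fold higher. Icam1, which binds leukocyte integrins, was at 9.69, 15.6 and 24.2 CPM after SE and 0.852, 2.28 and 0.928 CPM in Ctr (Log2FC 3.59 ± 0.39), and Angpt2, which loosens vessels, rose by 4.22 ± 0.45. Vegfa was at 191, 328 and 209 CPM after SE and 67.6, 68.6 and 59.04 CPM in Ctr, while Vegfd fell by 2.34 on the log2 scale. The groups did not overlap in any of the genes called here.

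Matrix remodelling genes rose in 16 of 22 cases and 2 fell, with a median Log2FC of 2.31. Itga5, the fibronectin receptor subunit, was at 132, 59.7 and 117 CPM after SE and 2.84, 7.33 and 3.09 CPM in Ctr (Log2FC 4.52 ± 0.32), and the urokinase receptor Plaur rose by 4.73 ± 0.58. Mmp3 was at 3.43, 2.39 and 5.97 CPM after SE with no count in Ctr, at least 19.4-fold higher, whereas Mmp9 was not called, at 2.19, 1.43 and 0.876 CPM after SE and 1.23, 2.35 and 2.59 CPM in Ctr. Components of perineuronal nets did not move together. Hapln1, which links hyaluronan to proteoglycans, fell from 30, 29.8 and 35.6 CPM in Ctr to 7.06, 4.57 and 5.34 CPM, Bcan, brevican, fell by 1.13 on the log2 scale, and Acan, aggrecan, rose from 3.22, 4.35 and 6.26 CPM to 16, 27.4 and 34.8 CPM. Of 15 growth factor genes tested, 8 rose and 0 fell, with a median of 1.43. Hbegf, a ligand of the EGF receptor, was at 162, 136 and 176 CPM after SE and 14.01, 13.8 and 12.02 CPM in Ctr (Log2FC 3.58 ± 0.26), and Fgf2 rose by 3.23 ± 0.23.

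Of 12 pan-neuronal genes, 3 fell and 1 rose, with a median Log2FC of -0.52. Without Ctr replicate 3, 2 rose, and without SE replicate 1, 4 fell and 0 rose. Camk2a, the calcium-dependent kinase of excitatory synapses, was at 2376, 2527 and 2549 CPM after SE and 4859, 3583 and 7197 CPM in Ctr (Log2FC -1.07 ± 0.20), and Syt1, the calcium sensor of release, was at 888, 1005 and 798 CPM after SE and 1649, 1583 and 2178 CPM in Ctr (Log2FC -1.01 ± 0.13). Both groups were apart, with Ctr replicate 3 the highest. Rbfox3 and Map2 were not called (-0.34 ± 0.16 and -0.06 ± 0.10). Nefm, a neurofilament, was at 886, 424 and 472 CPM after SE, and this rise was not called without SE replicate 1 (Log2FC 1.00), the library with sensory ganglion genes, in which Nefm was highest. Of 9 CA1 pyramidal genes, 1, Ccn3, fell, from 512, 399 and 198 CPM in Ctr to 103, 159.8 and 96.6 CPM, and the list had a median of -0.41. That median was -0.55 without Ctr replicate 3 and -0.74 without SE replicate 1 and Ctr replicate 3 together. Wfs1, a marker of CA1, was at 131, 250.4 and 97.1 CPM after SE and 122, 537 and 67.8 CPM in Ctr, so its controls differed among themselves more than the groups did. Among 12 interneuron genes, Npy (1.69 ± 0.27), Sst (1.48 ± 0.33) and Reln (1.43 ± 0.24) rose, which encode peptides and a secreted matrix protein, and Gad1, the GABA-synthesizing enzyme, was not called (-0.09 ± 0.14), nor was Pvalb, at 26.04, 6.83 and 15.5 CPM after SE and 31.2, 30.6 and 27.1 CPM in Ctr.

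Receptor genes fell where they changed. Of 22 glutamate receptor genes, 8 fell and 0 rose, with a median Log2FC of -0.50, and of 12 GABA-A receptor genes, 4 fell and 0 rose, with the same median. These medians, and those of the potassium channel and presynaptic lists below, lie near the -0.52 of the pan-neuronal list. Whether receptors changed beyond other neuronal genes was not tested. All 4 AMPA receptor subunits fell, Gria1 by 1.13, Gria2 by 1.03, Gria3 by 0.94 and Gria4 by 0.80 on the log2 scale. Of the 8 glutamate receptor genes that fell, 6 were called in each fit with 1 library left out, Gria1 and Gria2 among them but not both Gria3 and Gria4. Gria2, which makes the channel impermeable to calcium, was at 552, 440.2 and 514 CPM after SE and 1126, 808 and 1134 CPM in Ctr. Grm5, a group I metabotropic receptor, was at 119, 117 and 104 CPM after SE and 315, 235 and 304 CPM in Ctr (Log2FC -1.32 ± 0.15). All SE libraries were below all controls in both genes. The NMDA receptor genes Grin1, Grin2a and Grin2b were not called, with Log2FC of -0.06 ± 0.13, -0.59 ± 0.24 and -0.31 ± 0.17. Among the GABA-A subunits, Gabra5, of extrasynaptic receptors, was at 91.5, 61.6 and 64.8 CPM after SE and 136, 104 and 255 CPM in Ctr, highest in Ctr replicate 3. Its Log2FC was -1.19 ± 0.25, or -0.72 and still called without that library. Gabrb2 also fell, as did Gabrb1, whose Log2FC without Ctr replicate 3 was -0.56 and not called. Gabrd was at -0.01 and not called. Of 11 cholinergic receptor genes, 3 fell, Chrm2 (-1.75 ± 0.32), Chrna7 (-1.15 ± 0.32) and Chrnb2 (-0.68 ± 0.14). Without Ctr replicate 3, Chrm2 alone was called, with Chrna7 at -0.81 and Chrnb2 at -0.63.

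Potassium and HCN channel genes included both directions, with 5 of 31 higher and 12 lower and a median Log2FC of -0.51. Kcnj9, a subunit of G-protein-gated channels, was at 39.5, 53.8 and 36.01 CPM after SE and 131, 200.3 and 103 CPM in Ctr (Log2FC -1.74 ± 0.24). Kcnip4, a modulator of A-type channels, fell by 1.53 on the log2 scale. Kcnq5, of the M current, was at 22.02, 20.7 and 18.1 CPM after SE and 47.9, 48.8 and 191 CPM in Ctr, highest in Ctr replicate 3, and Kcnv1 fell by 1.64, or -0.98 and not called without that library. Without Ctr replicate 3, 4 genes of the list rose and 9 fell. Hcn4, a pacemaker channel with low levels in CA1, was at 9.34, 17.3 and 11.7 CPM after SE and 3.79, 4.63 and 2.01 CPM in Ctr (Log2FC 1.92 ± 0.37), while Hcn2 was not called (-0.22 ± 0.16). The A-type channel subunits Kcnd2 and Kcnd3 went apart, at -0.67 and 0.68, calls lost in 2 and 3 of the 6 fits with 1 library left out. Of 23 sodium and calcium channel genes, 7 fell and 0 rose, with a median of -0.31, and 4 fell without Ctr replicate 3. Scn2b, a sodium channel beta subunit, was at 119.7, 127 and 109.9 CPM after SE and 292, 306 and 415 CPM in Ctr (Log2FC -1.51 ± 0.13, adjusted p = 1.13e-07), and Scn2a fell by 0.91 on the log2 scale. Of the calcium channel genes that fell, Cacnb2 (-1.13 ± 0.21) and Cacna2d3 (-1.08 ± 0.22) encode auxiliary subunits, and no pore subunit of a calcium channel was called. Presynaptic release genes fell in 5 of 16 cases, Syt1, Syn2, Cplx2, Sv2a and Sv2b, with a median of -0.53. Without Ctr replicate 3, in which pan-neuronal genes summed to 20130 CPM against 13120 to 14940 CPM in the other controls, Syt1 and Sv2a were called and Syn2, Cplx2 and Sv2b were not, with Log2FC of -0.61, -0.63 and -0.71.

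Clock output genes, which are transcribed through E-boxes by CLOCK and BMAL1 and through D-boxes by the PAR bZIP factors, fell in 7 of 11 cases with 0 higher and a median Log2FC of -1.21. Beside Dbp, the PAR bZIP factors Hlf and Tef fell, Hlf from 213, 275 and 141 CPM in Ctr to 28.9, 30.8 and 41.4 CPM and Tef by 1.61 on the log2 scale. Per3, a period gene, fell from 72.6, 71.7 and 61.3 CPM to 11.2, 11.1 and 9.002 CPM, a Log2FC of -2.71 ± 0.20 (adjusted p = 9.75e-09). Nr1d2 and Nr1d1, the REV-ERB repressors, fell by 1.80 and 0.95, and Ciart, a repressor of CLOCK and BMAL1, by 1.21. All 7 falls were called in each fit with 1 library left out, and Per1 and Per2, which neuronal activity and cAMP also drive, were not called (0.48 ± 0.26 and -0.04 ± 0.25). Among 9 core and antiphase genes, Nfil3, the repressor that competes with the PAR bZIP factors, was at 29.5, 30.99 and 116 CPM after SE and 6.53, 7.74 and 6.26 CPM in Ctr (Log2FC 3.12 ± 0.61), and Bmal1 and Cry1 rose by 0.77 and 0.82, calls lost without SE replicate 3 (0.62 and 0.53). The groups overlapped for Cry1, whose call was also lost without Ctr replicate 3 (0.64). Of 12 glucocorticoid response genes, 3 rose, among them Errfi1 (2.32 ± 0.45) and Fkbp5 (0.83 ± 0.25), and Sult1a1 fell (-1.58 ± 0.60), a call lost in each of the 6 fits with 1 library left out.

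The E-box CACGTG was found in the promoters of 8.09% of all genes and in 4 of 9 clock output genes with a promoter (44.4%), Bhlhe41, Ciart, Per1 and Tef. The D-box was found in 2.72% of all genes and in 1 of the 9, Per3. The 250 bases before the starts of Ciart and Per3 are shown, since both fell and hold these motifs, in capitals, more than once, on the minus strand at chr3:95789541-95789790 and chr4:151129123-151129372 of GRCm39.
Ciart: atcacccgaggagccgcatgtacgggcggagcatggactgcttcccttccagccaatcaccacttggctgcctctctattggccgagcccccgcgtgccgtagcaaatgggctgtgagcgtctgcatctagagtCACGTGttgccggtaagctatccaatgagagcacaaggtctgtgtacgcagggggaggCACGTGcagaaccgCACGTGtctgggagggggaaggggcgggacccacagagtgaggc
Per3: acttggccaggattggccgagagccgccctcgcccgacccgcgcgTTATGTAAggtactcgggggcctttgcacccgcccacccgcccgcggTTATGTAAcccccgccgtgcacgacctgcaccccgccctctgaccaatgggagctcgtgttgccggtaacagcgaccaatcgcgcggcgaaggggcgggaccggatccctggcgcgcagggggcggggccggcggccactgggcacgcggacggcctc

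Of 17 interferon response genes, 7 rose and 0 fell, with a median Log2FC of 1.09, or 5 rose without SE replicate 1, led by Ifitm3 (2.46 ± 0.29), whereas Isg15 and Ifit1 were not called (0.41 and 1.09). Of 14 genes of the mitotic cycle, 4 rose, Aurka, Mcm2, Ccnd1 and Pcna, with a median of 0.34. The count was 3 without SE replicate 1 or without Ctr replicate 3 and 2 without both, and Mki67 was at 3.33, 2.98 and 2.15 CPM after SE and 3.69, 1.66 and 1.43 CPM in Ctr. Of 16 silencing and lineage factors, 7 rose and 1, Rcor2, fell, a call lost in 5 of the 6 fits with 1 library left out. Rest, the repressor of neuronal genes, was at 19.98, 21.5 and 23.4 CPM after SE and 6.34, 4.29 and 5.30 CPM in Ctr (Log2FC 2.02 ± 0.21), Cebpd rose by 3.17 ± 0.29 and Runx1 by 2.78 ± 0.40, and Ezh2 by 0.92 ± 0.25, while Suz12 and the histone deacetylases Hdac1 and Hdac2 were not called. Of 14 genes of sterol synthesis and uptake, 7 rose, by 0.67 to 1.06. Of 12 Notch and Hes genes, 2 rose and 3 fell, with Notch1 at 0.74 and Hes5 at -3.25. In the oligodendrocyte lineage, 1 of 14 rose (Klk6) and 1 fell (Cnp), both calls lost in at least 4 of the 6 fits with 1 library left out, and Mbp was at 1034, 604 and 1524 CPM after SE and 1701, 1407 and 1224 CPM in Ctr. SE replicate 2 was the lowest for Mbp, and the groups overlapped.

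The SE effect at 12 h was then set against those at 36 and 72 h, each with its own 3 SE and 3 Ctr libraries, and the difference of the effects was tested as an interaction. At 36 h, 2308 genes were higher (12.7%) and 1618 lower (8.91%), and at 72 h 2765 were higher (15.2%) and 765 lower (4.21%). The genes higher at both 12 and 36 h numbered 1320, 52.4% of those at 12 h and 57.2% of those at 36 h. Those lower at both numbered 918, 44.5 and 56.7%. With 72 h, 962 risen genes (38.2 and 34.8%) and 295 fallen genes (14.3 and 38.6%) were shared. The effect differed between 12 and 36 h in 613 genes (3.38%), 251 with a higher Log2FC at 12 h (1.38%) and 362 with a lower one (1.99%), or 191 and 476 when counts were scaled by library totals alone. Between 12 and 72 h it differed in 3383 genes (18.6%), 1145 higher (6.31%) and 2238 lower (12.3%) at 12 h. The median difference of all genes was -0.01 for 36 h and -0.15 for 72 h, and fitting the 4 groups alone, where it was 0.02 for 72 h, gave 794 higher and 762 lower genes. Without Ctr 72 h replicate 2, there were 1223 and 1798. The count for 36 h was sensitive to single libraries, with 1015 genes without SE 12 h replicate 1 and 203 without Ctr 36 h replicate 3.

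Immediate early and heat shock genes had the larger effect at 12 h. The median Log2FC of the 20 immediate early transcription factors went from 2.20 at 12 h to 0.08 at 36 h and -0.51 at 72 h, and the effect was higher at 12 h in 5 genes against 36 h and in 14 against 72 h, with 0 lower. Without Ctr 12 h replicate 3 these counts were 0 and 13, and without Ctr 36 h replicate 3 the first was 1. Nts had a Log2FC higher by 4.05 ± 0.79 at 12 h than at 36 h (adjusted p = 0.00938) and by 5.01 ± 0.83 than at 72 h. Its mean level after SE went from 216 CPM to 9.51 CPM at 36 h and 8.17 CPM at 72 h, with controls of each time point at 12.7, 8.85 and 17.1 CPM. Hspa1a differed by 4.93 ± 1.13 against 36 h, a call lost in 8 of 26 alternative fits, and Fosb by 5.22 ± 1.08 against 72 h. The effector list had 15 of 20 genes higher at 12 h than at 72 h and 3 higher than at 36 h, and the chaperone list had 13 of 20 higher and 1 lower against 72 h and 3 higher against 36 h. Without Ctr 36 h replicate 3, both counts against 36 h were 0, and without SE 12 h replicate 1 they were 5 and 7. Fndc9 (5.96 ± 1.03 against 72 h), Tmco5 (4.42 ± 0.67 against 36 h) and Spaar (5.08 ± 0.82 against 72 h), which encodes a small peptide, had the same direction.

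Homeostatic microglia genes differed in the other direction. The median Log2FC of the 14 genes went from -1.25 at 12 h to 0.52 at 36 h and 2.00 at 72 h, and the effect was lower at 12 h in 10 genes against 36 h, higher in 1 (Siglech), and lower in all 14 against 72 h. Without Ctr 36 h replicate 3 the first count was 5, and without the factor for unwanted variation 6, whereas the count against 72 h was 14 without that factor and when SE 12 h replicate 1, Ctr 12 h replicate 3 or Ctr 72 h replicate 2 was left out. P2ry12 after SE was at a mean of 3.38 CPM at 12 h, 11.6 CPM at 36 h and 62.8 CPM at 72 h, with controls at 44.1, 50.3 and 38.3 CPM, and its effect was lower at 12 h than at 72 h by -4.38 ± 0.33 (adjusted p = 2.95e-07). Selplg (-4.94 ± 0.40) and Cd33 (-4.92 ± 0.43), an inhibitory sialic acid receptor, had similar differences. Reactive microglia genes were lower at 12 h in 5 of 23 against 36 h and in 9 against 72 h, among them Cd68 and Gpnmb. The count against 36 h was 2 without Ctr 36 h replicate 3 and 3 without the factor for unwanted variation. The median of the interferon list went from 1.09 to 3.23 at 36 h and 2.83 at 72 h, with 7 of 17 genes lower at 12 h than at 72 h, or 4 without Ctr 72 h replicate 2. Mitotic genes had medians of 0.34, 1.82 and 2.82, with 8 of 14 lower at 12 h than at 72 h, or 5 in a fit of the 4 groups alone, and Mki67 reached a mean of 67.5 CPM at 72 h after SE against 2.82 CPM at 12 h.

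**Figure D4:**
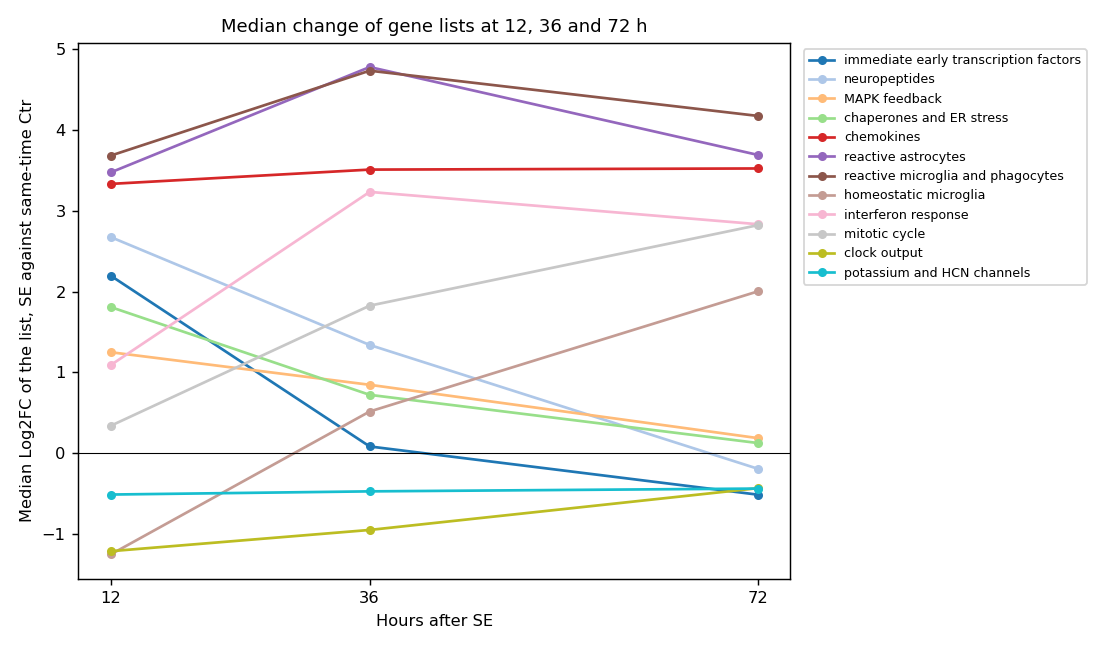
Median Log2FC of 12 gene lists for SE against the Ctr of the same time point, plotted against hours after SE (12, 36 and 72), with 1 line per list. The immediate early list goes from 2.20 to 0.08 and -0.51 and the homeostatic microglia list from -1.25 to 0.52 and 2.00.

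Reactive astrocyte genes stayed high, with median Log2FC of 3.47, 4.78 and 3.69 at 12, 36 and 72 h, but single genes had not reached their later level at 12 h. Tm4sf1, a membrane protein, had a mean of 73.8 CPM at 12 h after SE, 777 CPM at 24 h, 438 CPM at 36 h and 106 CPM at 72 h, and its effect was lower at 12 h than at 36 h by -2.73 ± 0.40. Cd109, a coreceptor of TGF-beta, differed by -3.86 ± 0.93 against 36 h, a call lost in 10 of 26 alternative fits. Nupr1, a stress-induced nuclear protein, was at a mean of 15.4 CPM at 12 h and 64.4 CPM at 36 h after SE (-2.69 ± 0.55). Lcn2 had a mean of 54.3 CPM at 12 h and 56.0 CPM at 72 h after SE, with 0.382 and 4.51 CPM in the controls. Clock output genes were lower at 36 h as well, with 9 of 11 fallen and a median of -0.95, and the effect on Dbp was lower at 12 h than at 72 h by -2.66 ± 0.44. For an equal hour of SE, 36 h falls at the same time of day as 12 h, and 72 h does not. In clock genes, time after SE and time of day therefore cannot be told apart in the difference against 72 h.

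**Figure D5:**
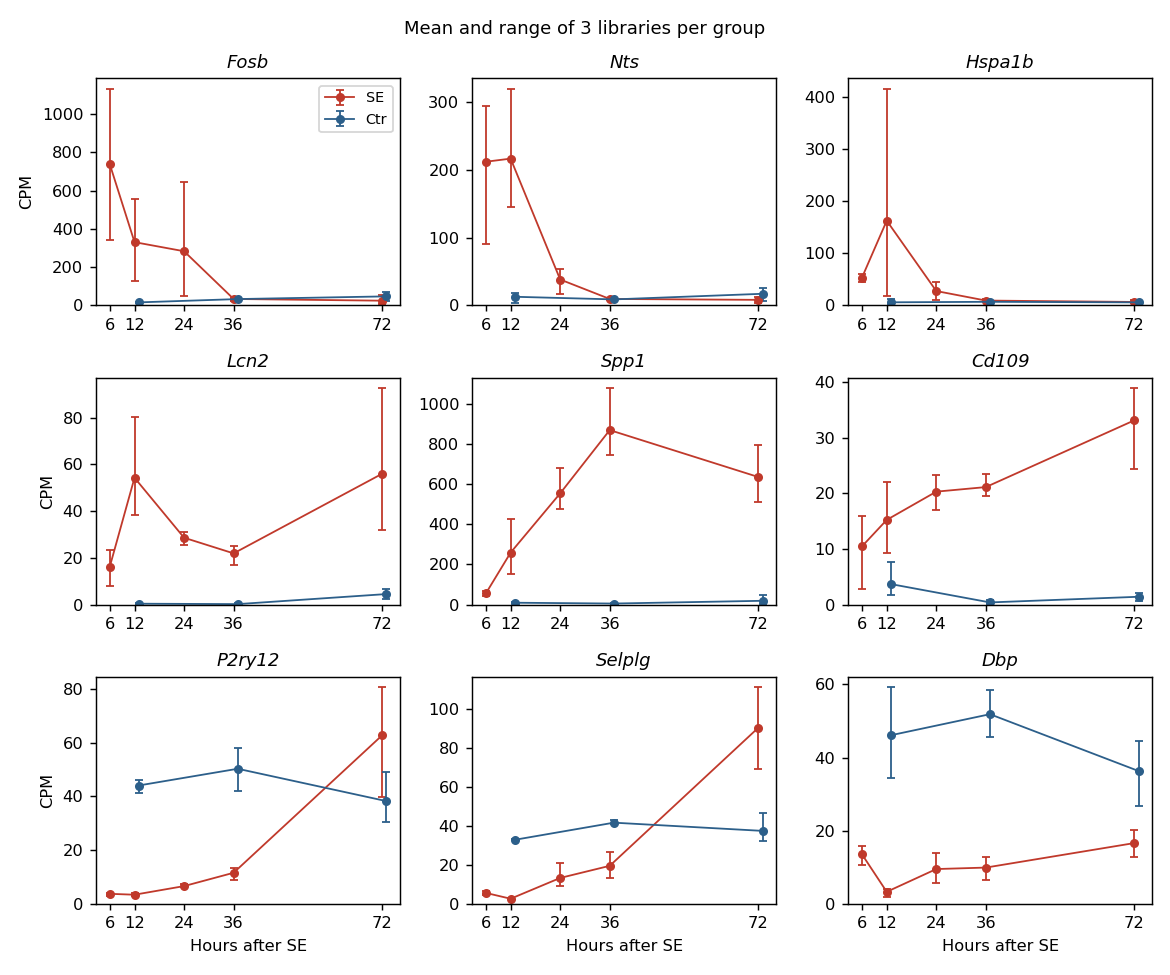
Mean CPM of 9 genes after SE (red, 6 to 72 h) and in Ctr (blue, 12, 36 and 72 h, drawn 1 h to the right), with bars from the lowest to the highest of 3 libraries per group. Fosb, Nts and Hspa1b are high at 12 h and near Ctr at 36 h, while P2ry12 and Selplg are lowest at 6 and 12 h and above Ctr on average at 72 h.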

How the data were processed

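The deposited table holds raw counts per gene, which the authors made by trimming reads with Trim Galore 0.6.6, aligning with STAR 2.7.8a to GRCm39, sorting with SAMtools 1.10 and counting with HTSeq 0.13.5 without regard to strand. It lists 18647 genes in 24 libraries. Of these genes, 18552 were matched to the GENCODE annotation of GRCm39 by identifier, 95 were not, and 22 share a symbol with another gene. Libraries were grouped by their labels into 8 groups of 3. Counts were filtered with filterByExpr, scaled by TMM and fitted with edgeR 4.0.16 (R 4.3.3) in a quasi-likelihood model of all 24 libraries, where each group had its own term and the deviance residuals gave 1 further factor for unwanted variation (RUVr). All libraries thus share 1 estimate of the spread. Standard errors are the Log2FC divided by the square root of the F statistic, and p-values were adjusted over all genes after Benjamini and Hochberg. Genes at 0 in every control were set against 3 counts per library. Intervals of ratios are at the 95% level and cover counting error only.

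The gene lists and the genes named were chosen with earlier results of these data known. Named were the 8 largest rises and falls, up to 5 called members of each list with others for contrast, the 6 largest differences between time points in each direction and the genes of the promoters shown, except that 1 of the largest rises and some list members are not reported here. No gene met the further rule for rises from controls with at most 3 counts, and genes that the paper's text names were not added beyond these. Totals of 10651808 to 30133731 counts limit genes under about 1 CPM. On simulated counts with the mean of each gene over all libraries, 45% of 200 genes changed by a Log2FC of 1 were recovered with 4 false calls among 17679 genes, and 67% at 1.5 with 3 false calls among 17692. The simulation held no other group effects, no unwanted variation between libraries and no library with foreign RNAs, so its false calls do not give the error of the real comparison. Alternatives used DESeq2 1.42.0, voom of limma 3.58.1, other scalings, filters and thresholds, counts thinned to the smallest library, the range of the label numbers, a replicate block and each library left out. Reads of near-identical copies (Hspa1a and Hspa1b, Lilrb4a and Lilrb4b, Hba-a1 and Hba-a2) may have been split or discarded in counting.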

Additional observations from a re-analysis of the deposited data

Results flagged for a closer look

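The SE effect at 12 h was compared with the SE effect at 36 and 72 h by a test of the difference itself, an interaction term in edgeR's quasi-likelihood fit, and every result given here passed it. Dixon's test for a single value far from the others was not run on groups of 3 libraries. The effect differed from that at 36 h in 613 genes and from that at 72 h in 3383 genes.

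Among genes called at 12 h, the differences against 36 h (12 h minus 36 h, log2 scale) that were largest upward were those of Hspa1a (4.93), Tmco5 (4.42), Fosb (4.29), Hspa1b (4.27), Nts (4.05) and the predicted gene Gm13630 (3.75). The largest downward were those of Cd109 (-3.86), Cd180 (-3.16), Col12a1 (-2.99), Lrrc55 (-2.90), Tm4sf1 (-2.73) and Nupr1 (-2.69). Of these 12, Tmco5, Nts, Cd180, Tm4sf1 and Nupr1 were called in each of 26 alternative fits, whereas the call of Cd109 was lost in 10, that of Fosb in 9, that of Hspa1a in 8, that of Hspa1b in 13 and that of Lrrc55 in 4. Gm13630 lost its call with voom and Col12a1 without the factor of unwanted variation. SE replicate 3 at 12 h was the library in which Hspa1a and Hspa1b were far above the others.

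Against 72 h, Fndc9 (5.96), Egr2 (5.56), Gm13630 (5.54), Fosb (5.22), Spaar (5.08) and Hspa1a (5.02) had the larger effect at 12 h, and Ccbe1 (-6.08), Selplg (-4.94), Cd33 (-4.92), Npy2r (-4.84), Crb2 (-4.38) and P2ry12 (-4.38) the smaller one. Ccbe1 and Npy2r were highest in Ctr 12 h replicate 3, the library with raised CA3 genes, and the call of Ccbe1 was lost in 9 of 26 alternative fits. Npy2r lost its call with voom and without both SE replicate 1 and Ctr replicate 3, and Hspa1a with voom. The other 9 were called in each of the 26.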

How the results depend on the processing

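The count of 4580 DEGs at 12 h fell to 2910 with an absolute Log2FC of at least 1 and rose to 6986 with the adjusted p alone. Without 1 library of the fit at a time it ranged from 3837 (SE 12 h replicate 3 left out) to 4776 (SE 12 h replicate 1 left out), and with both SE 12 h replicate 1 and Ctr 12 h replicate 3 left out, an alternative chosen after seeing the data, it was 4215. The count of 613 genes for 12 h against 36 h was 289 without the RUVr factor and 1120 with DESeq2, and from 203 (without Ctr 36 h replicate 3) to 1015 (without SE 12 h replicate 1) with 1 library left out. It was also 398 and 325 without SE 12 h replicates 2 and 3, 376 and 281 without Ctr 12 h replicates 1 and 2, 254 and 312 without SE 36 h replicates 1 and 3, and 276 and 214 without Ctr 36 h replicates 1 and 2. For 12 h against 72 h, 3383 genes became 1556 in a fit of the compared groups only, and 2918 (without SE 72 h replicate 2) to 3871 (without Ctr 72 h replicate 1) with 1 library left out. Of the genes named, 0 changed direction under any alternative, and in 302 combinations of gene and alternative a call was lost, against 4699 in which it was as reported. The replicate numbers of SE and Ctr were not used as pairs in the main fit. The deviations of libraries with the same number correlated at 0.082, 0.181 and -0.0017. SE replicates 1 and 2 correlated best with the control of the same number, and SE replicate 3 with Ctr replicate 1. All these values are low, so they cannot decide whether the libraries were paired. With the replicate number as a block, 4563 genes were called at 12 h, 670 for 12 h against 36 h and 3498 for 12 h against 72 h. The labels number SE 12 h replicates 1 to 3 as 162, 94 and 96, and those of Ctr as 109, 111 and 163. Apart from 162 and 163, SE numbers were below Ctr numbers, so group and number are partly confounded at 12 h. At 72 h every SE number was below every Ctr number, and the groups shared no range. Group and range therefore cannot be told apart within 72 h, which limits every difference against 72 h. With these numbers, grouped by range, in the model, 4060 genes were called at 12 h, 547 against 36 h and 2623 against 72 h. A call at 12 h was then lost in 22 of the genes named, among them Il6, Il1b, Ppargc1a and Chrnb2. The causes of these differences between settings were not tested.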
